A study of Mus musculus with 16 samples.

Results

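Long RNAs that are read for something other than a protein were followed here in mIMCD3 cells exposed to doxycycline (DOX): 8 noncoding host genes of small nucleolar RNAs (snoRNAs), namely *Gas5*, *Snhg1*, *Snhg3*, *Snhg5*, *Snhg6*, *Snhg8*, *Snhg12* and *Epb41l4aos*, and the nuclear long RNAs *Neat1* and *Malat1*. They were chosen by name, and all 10 were found among the 53354 genes of the table of length-normalized levels (TPM) and, by the same Ensembl identifiers, in the count table. The mIMCD3 line is an epithelial line from the kidney inner medulla of a mouse carrying a simian virus 40 (SV40) T-antigen transgene, and its genotype is otherwise given as wild type. DOX, the inducer of tetracycline-regulated gene systems, was the only agent compared, and its vehicle DMSO was the control. All cells stood on permeable filters for 10 days, after which the medium held either vehicle or DOX at 2 µg/mL, for 3 days in some wells and 6 days in others, giving 4 groups of 4 libraries (16 in all).

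Small nucleolar RNAs guide the methylation and pseudouridylation of ribosomal RNA. In mammals most of them are cut out of the introns of a host gene, and the spliced exons of a noncoding host go to the cytoplasm, where ribosomes that meet an early stop codon expose the RNA to nonsense-mediated decay, so that the level of a host transcript depends on its translation as well as on its synthesis. *Neat1* is the RNA scaffold of paraspeckles, *Malat1* gathers in nuclear speckles, and both remain in the nucleus, out of reach of ribosomes.

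The early stop that such a host carries is shown for Gas5-224, a *Gas5* model of GENCODE release M21 (GRCm38) with 12 exons and 502 bases. The 115 bases at its 5′ end follow, with the first open reading frame, from the AUG at base 35 through the stop, in capitals.
Gas5-224, bases 1 to 115: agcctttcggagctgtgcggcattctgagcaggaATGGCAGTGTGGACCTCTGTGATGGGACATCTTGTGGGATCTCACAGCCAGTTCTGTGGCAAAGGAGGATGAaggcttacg

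The frame has 23 codons before its stop, and 7 exon junctions lie more than 50 bases beyond the stop, the arrangement that nonsense-mediated decay is known to act on. Such a junction was found in 24 of the 25 spliced models of *Gas5*, 15 of 18 of *Snhg1*, 5 of 6 of *Snhg5*, 9 of 10 of *Snhg12* and 4 of 5 of *Snhg6*. It was found in 2 of 2 spliced models of *Snhg8*, 2 of 2 of *Epb41l4aos* and 2 of 5 of *Snhg3*. In every model of *Snhg8* the first frame has only 1 codon before its stop. The same reading of the letters also marks 2 of the 3 spliced models of *Neat1* and 3 of 3 of *Malat1*, although the longest model of each of these nuclear RNAs has a single exon and no junction. The count of models is a description of the annotation and says nothing of which models these cells use.

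Many snoRNA hosts are also known to start, like ribosomal protein genes, with a C followed by further pyrimidines, the terminal oligopyrimidine (TOP) start through which translation responds to mTOR. The 40 bases before and 20 bases after the annotated start are printed for the members with an entry in the RefSeq promoter table (GRCm38.p6), so that the starts of the hosts can be read beside that of a nuclear RNA. Capitals mark TATAA within 40 bases before the start and a C followed by 4 or more C or T bases that begins within 5 bases of it.
Gas5, chr1:161035126-161035185, plus strand: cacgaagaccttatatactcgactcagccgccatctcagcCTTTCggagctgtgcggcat
Snhg8, chr3:123508317-123508376, minus strand: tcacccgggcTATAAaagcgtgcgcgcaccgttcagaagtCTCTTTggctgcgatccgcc
Snhg12, chr4:132308638-132308697, plus strand: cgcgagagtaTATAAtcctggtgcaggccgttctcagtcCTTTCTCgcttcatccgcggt
Snhg3, chr4:132353667-132353726, minus strand: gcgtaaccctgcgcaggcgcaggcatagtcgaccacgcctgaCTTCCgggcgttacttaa
Snhg5, chr9:88522878-88522937, minus strand: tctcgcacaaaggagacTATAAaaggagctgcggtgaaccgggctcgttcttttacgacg
Snhg1, chr19:8723447-8723506, plus strand: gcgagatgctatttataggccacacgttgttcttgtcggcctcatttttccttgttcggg
Malat1, chr19:5802653-5802712, minus strand: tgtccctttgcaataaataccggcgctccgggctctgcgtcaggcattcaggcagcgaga

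The pyrimidine start was present in 4 of the 6 host genes with an entry and in 21.2% of the 27025 genes of the table (18.3% of its 32851 promoters, each 300 bases long). Of 18 protein-coding hosts with an entry 4 had it, or 22.2%. TATAA stood in that window in 3 of the 6 hosts and in 5.07% of all genes (4.23% of promoters). *Gas5* has a further annotated start upstream, which carries neither. Neither CACGTG, the E-box, nor TGATGNAA, the core of amino acid response elements, was found on either strand of the 300 bases (250 before and 50 after the start) of any of the 6 hosts or of *Malat1*, against 8.09% and 4.51% of all genes (7.15% and 3.97% of promoters). None of the 4 patterns contains another, and a match or its absence describes letters only. *Snhg6*, *Neat1* and *Epb41l4aos* were not matched.

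Inside the hosts lie the small RNAs for which they are named. *Gas5* holds 10 annotated snoRNA genes (2 of them overlapping entries for Snord80), of which Snord80 and Snord47 are printed to show their form, and *Snhg5* holds 2, of which Snord50a is printed. Capitals mark the C box and the D box, by which box C/D snoRNAs bind their proteins. The sequences are read from GENCODE M21 transcripts (GRCm38).
Snord80, chr1:161037601-161037681, plus strand: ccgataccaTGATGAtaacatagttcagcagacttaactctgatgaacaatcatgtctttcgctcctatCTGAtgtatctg
Snord47, chr1:161038082-161038158, plus strand: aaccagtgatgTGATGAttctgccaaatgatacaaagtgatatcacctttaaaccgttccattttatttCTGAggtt
Snord50a, chr9:88521529-88521600, minus strand: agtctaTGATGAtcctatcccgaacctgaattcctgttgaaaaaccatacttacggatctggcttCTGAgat

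These libraries were made from poly(A) RNA, and few reads were assigned to the small products. The 10 snoRNA genes in *Gas5* together had 0 to 0.991 estimated counts in a library, those in *Snhg5* 0 to 0.996 and those in *Snhg12* 0 to 0.896. *Snhg1*, with 8 such genes, had 0 to 6.39 counts over them, and *Snhg3*, with 2, had 2 to 15. Snord87 in *Snhg6* had 2 to 8 counts, Gm23639 in *Epb41l4aos* 0 to 12 and Snora24 in *Snhg8* 0 in every library. None of them passed the filter on low counts, so the values that follow are of the spliced hosts and not of snoRNAs.

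Each library held between 16933343 and 23960860 estimated counts, of which the 10 members took 0.288% to 0.414%. A limit of 3 counts corresponds to 0.125 to 0.177 CPM (counts scaled to library size), far below any member, and covers counting error only. Epithelial markers (*Cldn4*, *Cldn7*, *Epcam*, *Krt8*, *Krt18* and *Cdh1*) were abundant in every library, with summed levels of 2125 to 2586 TPM under DMSO and 1570 to 1820 TPM under DOX. Of 8 collecting duct markers the sum never passed 3.67 TPM, 7 were too low to be tested, and *Aqp2*, the water channel that defines principal cells, reached at most 0.391 TPM, so these defining markers were at or near 0. Markers of fibroblasts, endothelium and leukocytes summed to 25.7 to 33.4 TPM under DMSO and 12.3 to 17.3 TPM under DOX, nearly all of it *Cd68* and *Csf1r*. At 3 days both were called lower, at -0.96 and -0.82 in log2, as were *Krt8* (-0.48) and *Cdh1* (-0.47) of the epithelial list. At 6 days both were again called lower, at -0.90 and -0.63, as were *Krt8* (-0.75), *Krt18* (-0.41) and *Cldn4* (-0.40) of the epithelial list and *Hsd11b2* (-1.44), the collecting duct marker that could be tested (edgeR). The share of counts from the mitochondrial genome was 1.54% to 1.64% with DMSO and 1.68% to 1.83% with DOX at 3 days, and 1.29% to 1.78% with DMSO and 2.20% to 2.51% with DOX at 6 days, without overlap at either day. The part of these markers and of this share in the results was not tested. The labels do not say whether the 4 libraries of a group came from separate cultures, so p-values measure the spread between these samples, which may be technical.

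The library of DOX at 3 days with replicate number 1 stood apart from the rest of its group and touches every member. Its TMM scaling factor was 1.00, whereas the other 3 libraries had 0.950 to 0.955. It had the lowest CPM of its group for all 8 hosts and the highest for *Neat1* and *Malat1*. Without it, the genes called at 3 days rose from 1658 to 2295. For results that rest on it, the value without it is given as well. The hosts moved together in other libraries too. Replicate 1 of DMSO at 3 days (factor 0.967, the rest of its group 1.00 to 1.04) had the highest CPM of its group for all 8 hosts. So did replicate 1 of DOX at 6 days (0.989, the rest 1.017 to 1.024). Without that DOX library, members called higher at 6 days fell from 4 to 2.

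*Gas5* was the most abundant member in every group. In the 8 DMSO libraries it averaged 2305 ± 235 TPM (SD, n = 8), rank 88 of 53354 genes. *Snhg6*, with 740 ± 94.2 TPM, had rank 199, and *Snhg1*, with 708 ± 53.2 TPM, rank 208. *Snhg8* came next at 473 ± 46.0 TPM (rank 274). *Malat1* (294 ± 38.1 TPM), *Neat1* (249 ± 38.6 TPM) and *Epb41l4aos* (241 ± 23.6 TPM) stood in the middle. *Snhg12* stood at 172 ± 12 TPM, and *Snhg5* (67.3 ± 6.52 TPM) and *Snhg3* (66.5 ± 12.2 TPM) were lowest.

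Within a group, neighbours in this order were often not separable. In DMSO at 3 days the ranges of *Snhg6* and *Snhg1* overlapped, as did those of *Malat1*, *Epb41l4aos* and *Neat1*, and those of *Snhg3* and *Snhg5*. The order was different in DOX at 6 days. There *Snhg1*, at 963 ± 99.9 TPM (SD, n = 4), stood above *Snhg6*, at 692 ± 65.1 TPM, without overlap, and *Snhg5*, at 119 ± 5.71 TPM, stood above *Snhg3*, at 53.5 ± 1.498 TPM. The order depends on the length a gene is divided by: with CPM per kilobase of the median annotated transcript in place of TPM, *Malat1* ranked 1, *Gas5* 2 and *Neat1* 4. The median annotated transcript of *Malat1* has 606 bases and its longest 6983, so its rank 1 depends on the use of that short length.

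**Figure D1:**
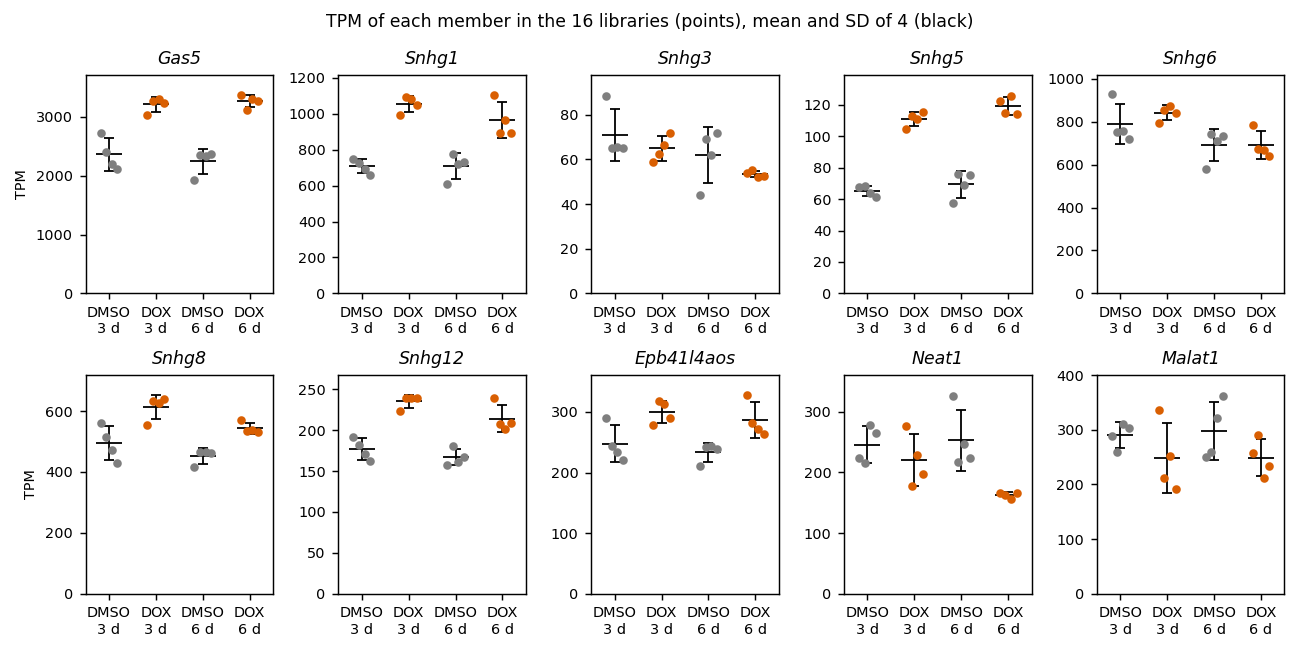
TPM of each member (y axis, from 0) in the 4 libraries of DMSO at 3 days, DOX at 3 days, DMSO at 6 days and DOX at 6 days (x axis), with grey points for DMSO, orange points for DOX, and the mean and SD of 4 libraries in black. All DOX libraries of *Gas5*, *Snhg1*, *Snhg5* and *Snhg12* lie above the DMSO libraries of their day, and the 4 *Neat1* libraries of DOX at 6 days run from 156.5 to 165.7 TPM, below every other *Neat1* library.

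The question of the comparison between DOX and DMSO is whether an agent used only to switch a transgene on changes the cells' own RNAs. At 3 days 6 of the 10 members were called higher with DOX and 0 lower, and at 6 days 4 were called higher and 1, *Neat1*, lower. A call is an adjusted p under 0.05 in edgeR's test of a change beyond 1.2-fold, and over all 13234 tested genes the calls came to 5.3% higher and 7.22% lower at 3 days, and 10.0% higher and 11.6% lower at 6 days. In bulk libraries fewer cells of a type and less RNA per cell cannot be told apart. All values of single libraries that follow are CPM scaled by TMM, in the order of replicate numbers, and all 10 members passed the filter on low values.

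*Gas5* (ENSMUSG00000053332, chr1:161034422-161038539, plus strand, GRCm38, 25 annotated transcripts of 346 to 2556 bases) was named as a growth-arrest transcript and is known to accumulate when translation slows. At 3 days its level was 827, 714, 647 and 588 CPM with DMSO and 928, 1136, 1149 and 1121 CPM with DOX. At 6 days it was 582, 659, 621 and 628 CPM with DMSO and 1025, 871, 1003 and 979 CPM with DOX. The groups did not overlap at either day, and the least affected DOX library of 3 days was the one that stands apart. The log2 fold change was 0.64 ± 0.092 (SE) at 3 days (edgeR, adjusted p = 0.000911) and 0.64 ± 0.092 at 6 days (adjusted p = 0.000484), that is 1.56-fold on both days. The call held in all 8 fits that each left out 1 library of the comparison, at either day. *Zbtb37* overlaps *Gas5* on the opposite strand, and since the strand setting of the quantification is not given in the sources used here, reads of the pair may be shared.

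*Snhg5* (ENSMUSG00000097195, chr9:88521050-88522929, minus strand), host of Snord50a and Snord50b, had the highest log2 fold change among the 10 members at both days. With DMSO at 3 days it stood at 40.7, 39.3, 35.0 and 31.9 CPM, and with DOX at 58.6, 72.4, 70.8 and 73.7 CPM. At 6 days the values were 31.1, 41.5, 35.2 and 38.5 CPM with DMSO against 69.8, 59.5, 66.5 and 60.6 CPM with DOX. The lowest DOX library was above the highest DMSO library at each day. The log2 fold change was 0.91 ± 0.093 at 3 days (edgeR, adjusted p = 5.02e-06, 1.88-fold) and 0.81 ± 0.093 at 6 days (adjusted p = 1.27e-05, 1.75-fold). It was called under all 21 alternatives at each day.

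*Snhg1* (ENSMUSG00000108414, chr19:8723475-8726443, plus strand), whose introns hold 8 snoRNA genes including Snord22, was also higher at both days. At 3 days it stood at 295, 274, 259.9 and 231 CPM with DMSO and at 377, 472, 469 and 452 CPM with DOX. At 6 days it stood at 231, 277, 249 and 251 CPM with DMSO and at 420.1, 314, 358 and 333 CPM with DOX. The groups were apart at both days, with a narrower gap at 6 days. The log2 fold change was 0.74 ± 0.092 at 3 days (edgeR, adjusted p = 0.000118) and 0.50 ± 0.092 at 6 days (adjusted p = 0.0126). At 6 days the call rested on the library of DOX with replicate number 1, without which the log2 fold change was 0.41 and the adjusted p 0.0675.

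*Snhg12* (ENSMUSG00000086290, chr4:132308623-132311024, plus strand) hosts several box H/ACA snoRNAs, the class that guides pseudouridylation, and Snord99. At 3 days its levels were 75.7, 69.5, 63.7 and 58.1 CPM with DMSO and 87.0, 106, 105 and 104 CPM with DOX. At 6 days they were 60.5, 65.8, 57.7 and 56.9 CPM with DMSO and 93.1, 75.9, 78.5 and 81.4 CPM with DOX. The DOX libraries lay above the DMSO libraries at both days. DOX against DMSO gave a log2 fold change of 0.59 ± 0.083 at 3 days (edgeR, adjusted p = 0.00121) and 0.45 ± 0.083 at 6 days (adjusted p = 0.0242). The call of 6 days was lost without DMSO replicate 3 (adjusted p = 0.0583), DMSO replicate 4 (adjusted p = 0.0652) or DOX replicate 1 (adjusted p = 0.101).

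*Snhg8* (ENSMUSG00000104960, chr3:123507552-123508404, minus strand), host of Snora24, was called at 3 days and not at 6 days. At 3 days it measured 125, 113, 101 and 86.7 CPM with DMSO and 124, 162, 159.6 and 162 CPM with DOX. The levels of 6 days were 93.2, 94.4, 89.2 and 88.1 CPM with DMSO and 124, 106, 118 and 116 CPM with DOX. The groups overlapped at 3 days through the highest DMSO library and the DOX library that stands apart, and they were separate at 6 days. In log2 the change was 0.51 ± 0.094 at 3 days (edgeR, adjusted p = 0.0170) and 0.35 ± 0.095 at 6 days (adjusted p = 0.227). The 3-day call was lost without DMSO replicate 4 (adjusted p = 0.0769), DOX replicate 2 (adjusted p = 0.0541) or DOX replicate 4 (adjusted p = 0.0530), and without DOX replicate 1 the log2 fold change was 0.60 (adjusted p = 0.000844).

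*Epb41l4aos* (ENSMUSG00000087590, chr18:33794892-33795986, plus strand) lies beside *Epb41l4a* and holds 1 annotated snoRNA gene, Gm23639. At 3 days it stood at 55.5, 47.3, 44.2 and 39.4 CPM with DMSO and at 55.1, 71.4, 71.4 and 65.3 CPM with DOX. The 6-day values were 41.9, 43.0, 40.9 and 39.4 CPM with DMSO and 63.6, 49.4, 52.7 and 49.9 CPM with DOX. As with *Snhg8*, 1 library on each side overlapped at 3 days and none did at 6 days. The log2 fold change was 0.50 ± 0.099 at 3 days (edgeR, adjusted p = 0.0275) and 0.38 ± 0.099 at 6 days (adjusted p = 0.146). Its 3-day call was lost without DMSO replicate 3 (adjusted p = 0.0675), DMSO replicate 4 (0.114), DOX replicate 2 (0.0890) or DOX replicate 3 (0.0867), and without DOX replicate 1 the log2 fold change was 0.58 (adjusted p = 0.00371). The length and GC correction also ended it (adjusted p = 0.0712).

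*Snhg6* (ENSMUSG00000098234, chr1:9941959-9944118, minus strand, host of Snord87), next after *Gas5* by mean TPM over the 8 DMSO libraries, was not called at either day. It measured 213, 172, 168 and 151 CPM with DMSO and 184, 228, 231 and 221 CPM with DOX at 3 days. At 6 days it measured 135, 156, 142 and 146 CPM with DMSO and 180.4, 140.2, 153 and 147 CPM with DOX. Its groups overlapped at both days, and the log2 fold change was 0.30 ± 0.095 at 3 days (edgeR, adjusted p = 0.506) and 0.10 ± 0.096 at 6 days. *Mcmdc2* overlaps *Snhg6* on the opposite strand, with the same doubt as for *Gas5*.

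*Snhg3* (ENSMUSG00000085241, chr4:132348014-132353686, minus strand), host of the H/ACA RNAs Snora73a and Snora73b, had the fewest reads of the members, 168 to 323 counts in a library. It stood at 18.8, 13.5, 13.5 and 12.6 CPM with DMSO and 12.7, 15.3, 16.2 and 17.3 CPM with DOX at 3 days. At 6 days the values were 9.4, 13.4, 11.3 and 13.0 CPM with DMSO and 11.2, 10.3, 11.02 and 10.8 CPM with DOX. Neither day separated the groups, and the log2 fold changes were 0.08 ± 0.12 and -0.13 ± 0.13. *Rcc1* overlaps *Snhg3* on the same strand, so reads may be split between them, and Gm17300 overlaps it on the opposite strand.

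Of the 8 hosts, 4 did not overlap between DOX and DMSO at 3 days and 6 at 6 days, each time with DOX above. Over all tested genes the groups were apart in that direction for 18.8% at 3 days and 22.1% at 6 days. The median log2 fold change of the 8 hosts was 0.55 at 3 days and 0.42 at 6 days, beside 0.0031 and -0.00064 over all genes tested.

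**Figure D2:**
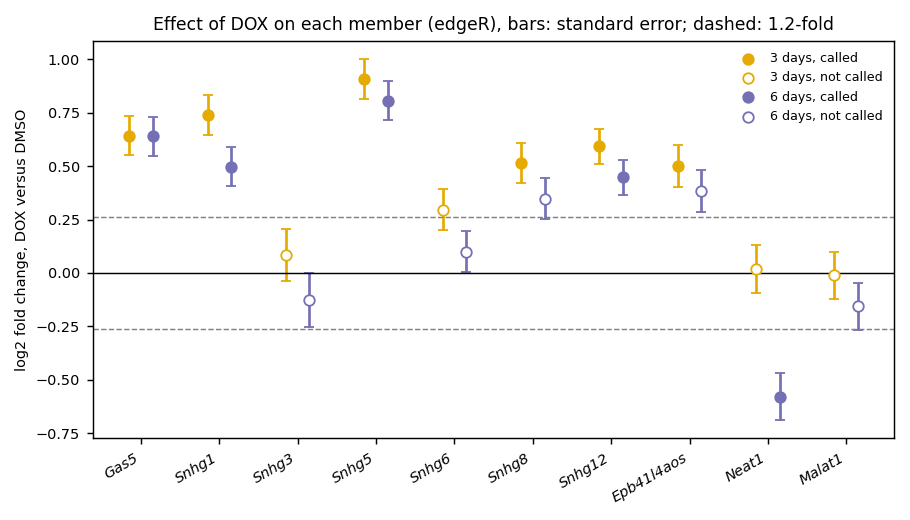
Log2 fold change of DOX against DMSO (y axis) for each member (x axis) at 3 days (yellow) and 6 days (purple), with the standard error as bars and dashed lines at 1.2-fold. Filled points were called by edgeR: at 3 days 7 hosts lie above the upper line and 6 of them are filled, 4 are filled at 6 days as well, and *Neat1* at -0.58 is the single filled point below the lower line.

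*Neat1* (ENSMUSG00000092274, chr19:5824708-5845478, minus strand) was the only member called lower. At 3 days it stood at 704, 619, 771 and 696 CPM with DMSO and at 795, 597, 764 and 668 CPM with DOX. By 6 days the values were 886, 619, 665 and 594 CPM with DMSO and 511, 461, 431 and 448 CPM with DOX. The 3-day groups lay over each other, while at 6 days every DOX library was below every DMSO library, as was the case in that direction for 20.9% of all tested genes. The log2 fold change was 0.02 ± 0.11 at 3 days and -0.58 ± 0.11 at 6 days (edgeR, adjusted p = 0.00748), 0.67 times the DMSO level. All 8 fits that left out 1 library kept the 6-day call, with adjusted p from 0.00328 to 0.0447.

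*Malat1* (ENSMUSG00000092341, chr19:5795690-5802672, minus strand) lies close to *Neat1* on the same strand of chromosome 19, and Gm37376 overlaps it on the opposite strand. At 3 days it stood at 1133, 1101, 1318 and 1307 CPM with DMSO and at 1424, 1103, 1305 and 988 CPM with DOX. At 6 days it stood at 1182, 891, 1166 and 1236 CPM with DMSO and at 1028, 1001, 926 and 1061 CPM with DOX. The treatments overlapped at both days, and the log2 fold changes were -0.01 ± 0.11 and -0.16 ± 0.11, with no call. *Malat1* and the long form of *Neat1* are known to end in a triple helix and not in a poly(A) tail, so oligo-dT selection may recover them unevenly, and the part of that in these values was not tested.

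The 2 treatment effects of a member were then set against each other in a test of the difference between 6 and 3 days, without a fold threshold. *Neat1* was the only member called, with an interaction of -0.60 ± 0.16 in log2 (edgeR's quasi-likelihood test, adjusted p = 0.0146), and 9.58% of all tested genes were called in that direction. Without the 3-day DOX library that stands apart the interaction of *Neat1* was -0.53 (adjusted p = 0.0210). For the 8 hosts the interactions ran from -0.24 (*Snhg1*, adjusted p = 0.205) to -0.0037 (*Gas5*, adjusted p = 0.990) and none was called, so a host called at 3 days only, such as *Snhg8* or *Epb41l4aos*, was not shown to respond differently at 6 days.

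The DMSO groups give the background of the longer culture. Between DMSO at 6 days and DMSO at 3 days edgeR called 0 members and 0 of the 13234 genes (0.0%), with 172 genes at an unadjusted p under 0.05, and DESeq2 called 0 as well, with 28 genes under 0.05. The 8 hosts were each lower at 6 days in value, by -0.29 (*Snhg3*) to -0.0014 (*Snhg5*) in log2. Between DOX at 6 days and DOX at 3 days *Neat1* was called lower, at -0.61 ± 0.11 (edgeR, adjusted p = 0.0212), as were 2.58% of all genes. The call depended on the libraries included: *Neat1* was called in 3 of 8 fits that left out 1 library, and without the 3-day library that stands apart it was at -0.55 (adjusted p = 0.0511). In that same fit *Snhg6* (-0.55, adjusted p = 0.0196), *Snhg3* (-0.59, adjusted p = 0.0329) and *Snhg8* (-0.47, adjusted p = 0.0363) were called lower. That fit called 649 of the 13234 genes lower, where the fit with all libraries called 341. With all libraries *Snhg6* (-0.48, adjusted p = 0.0839), *Snhg3* (-0.50, adjusted p = 0.135) and *Snhg8* (-0.39, adjusted p = 0.296) were not called. The DOX libraries of 6 days all lay below those of 3 days for *Snhg6*, *Snhg3* and *Neat1*, as they did for 10.8% of all tested genes.

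**Figure D3:**
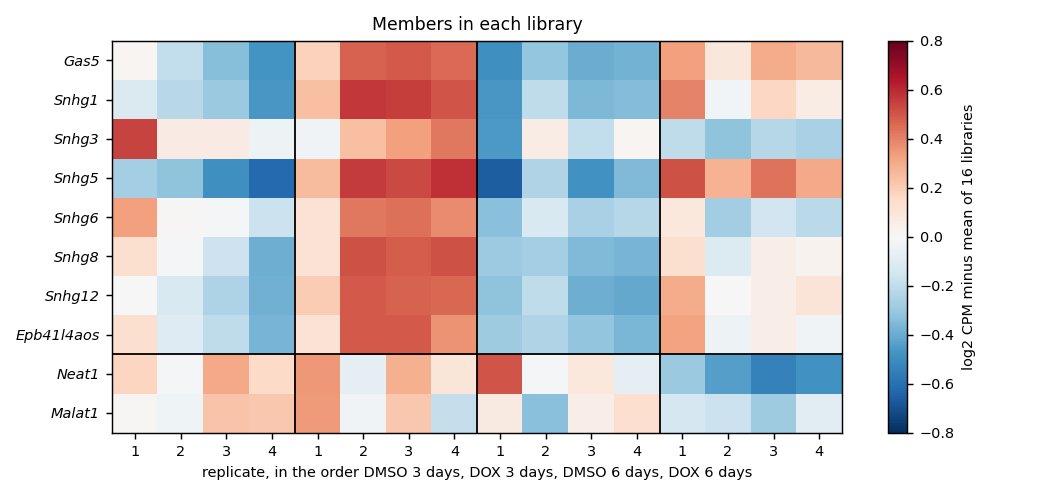
Log2 CPM of each member (rows) in each of the 16 libraries (columns, replicates 1 to 4 of DMSO at 3 days, DOX at 3 days, DMSO at 6 days and DOX at 6 days), less the member's mean over the 16 libraries, with red above and blue below the mean. The host rows are red in DOX at 3 days, other than *Snhg3* in replicate 1, and palest there in replicate 1, and the *Neat1* row is blue in all 4 libraries of DOX at 6 days.

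How the libraries were scaled matters for these genes. On log2(TPM + 1) tested with limma, the median of all genes lay at -0.15 at 3 days and -0.05 at 6 days, and the split of higher against lower calls was 85 to 616 at 3 days and 376 to 931 at 6 days, where edgeR gave 702 to 956 and 1326 to 1530. On that scale *Snhg1* and *Snhg5* were called at 3 days, with 0.58 and 0.76 in log2, and *Gas5* was at 0.45 (adjusted p = 0.125). At 6 days *Gas5* (0.54) and *Snhg5* (0.78) were called, and *Neat1* was at -0.61 (adjusted p = 0.0793). The direction was the same as in edgeR for all of these. At 3 days *Snhg3* (-0.12 on that scale, 0.08 in edgeR) and *Neat1* (-0.17 on that scale, 0.02 in edgeR) changed sign.

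Likeness between members was described over the 16 libraries. For the 28 pairs of hosts, Pearson's r of log2 CPM had a median of 0.87 (0.20 to 0.98), for the 16 pairs of a host with a nuclear RNA a median of -0.15 (-0.47 to 0.32), and *Neat1* with *Malat1* had r = 0.67. The points share libraries, depth and treatment, so these are descriptions with no test. Among 13233 other genes, the 5 most like *Gas5* were 2410006H16Rik, *Snhg5*, *Snhg1*, *Ybx3* and *Snhg12*, each with r = 0.97, so that 3 of the 5 were members. With the group means removed the order was different, and *Snhg8* and *Snhg6* were closest among the members (r = 0.93 each). Among the 5 genes most like *Neat1* were *Spc24* (0.89), which encodes a kinetochore protein, and *Cdca3*, *Piga* and *Hoga1* (0.87 each). Of these 5, 0 stayed in the top 5 by rank correlation (Spearman's rho) and 0 with the group means removed. In the latter case the genes named here had r from 0.51 to 0.64. The 5 most like *Malat1* were *Olfr986* (0.89), *Igip* (0.88), *Gdap10* and *Lmln* (0.87 each) and *Mycbp2* (0.86), of which 2 stayed in the top 5 under each of these checks.

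Lists of related genes, written from general knowledge, place the members among the machinery they belong to. Of 13 other noncoding hosts, 9 were tested, with median log2 fold changes of 0.29 at 3 days and 0.31 at 6 days. At 3 days 1 was called, *Snhg15* at 0.62 ± 0.091 (edgeR, adjusted p = 0.00137), and at 6 days 2 were, *Snhg15* at 0.50 and *Snhg17* at 0.51. No other noncoding host was called lower. Of 25 protein-coding hosts, most of them genes of ribosomal proteins and translation factors, 5 were called higher at 3 days and 4 at 6 days, none lower, with medians of 0.38 and 0.29. The largest at 6 days were *Eef2*, the translocation factor of elongation, at 0.65 ± 0.078 (adjusted p = 6.66e-05), *Ncl* (nucleolin) at 0.47 and *Rpl4* at 0.46.

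Small nucleolar RNAs work in particles with proteins. Of 16 genes for the core proteins and their assembly factors 2 were called higher at 3 days and 1 at 6 days, none lower, with medians of 0.32 and 0.14. The gene called at both days was *Nop56*, a core protein of box C/D particles that is itself a host, at 0.45 ± 0.053 (edgeR, adjusted p = 0.00363) and 0.44 ± 0.053 (adjusted p = 0.00241). *Nufip1*, an assembly factor, was the other at 3 days (0.42), and was named after its value was seen.

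Factors of nonsense-mediated decay were mostly not called, 20 of 21 at each day, with medians of -0.05 at both. *Upf3a* was called higher at 6 days, at 0.38 ± 0.053 (edgeR, adjusted p = 0.0209), and *Magohb*, named after its value was seen, at 3 days (0.57, adjusted p = 0.0369). Of 10 mRNAs known as targets of this decay, 6 were called higher at 3 days and 3 at 6 days, none lower, with medians of 0.46 and 0.22. *Ddit3*, which encodes the stress factor CHOP, had log2 fold changes of 0.90 ± 0.078 at 3 days (adjusted p = 4.53e-07) and 0.60 ± 0.077 at 6 days (adjusted p = 0.000288). *Chac1*, a glutathione-degrading enzyme, was at 0.62 and 0.46, and *Nat9* at 0.57 and 0.45, all called. Several genes of this list, such as *Ddit3*, *Chac1* and *Atf4*, are also known targets or effectors of the integrated stress response, so the list does not stand for decay alone.

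In the list of translation control by eIF2 and mTOR, 2 of 14 genes were called higher and 1 lower at each day, with medians of -0.11 and -0.0014. *Ppp1r15a*, the subunit that directs dephosphorylation of eIF2α, was at 1.43 ± 0.053 at 6 days (edgeR, adjusted p = 1.68e-13), *Sesn2*, an inhibitor of mTORC1 signalling, at 0.73 ± 0.092 (adjusted p = 6.89e-05), and *Eif2ak3*, the kinase PERK, at -0.79 ± 0.095 (adjusted p = 2.62e-05).

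Paraspeckles form where proteins assemble on *Neat1*. Of 10 paraspeckle proteins 3 were called lower at 3 days and 5 at 6 days, none higher, with medians of -0.19 and -0.36. *Pspc1*, paraspeckle component 1, fell from 53.9 ± 1.47 to 26.8 ± 1.69 CPM at 3 days (SD, n = 4) and from 54.7 ± 2.57 to 23.1 ± 0.887 CPM at 6 days, a log2 fold change of -1.01 ± 0.058 and -1.24 ± 0.059 (edgeR, adjusted p = 1.32e-09 and 9.38e-12). *Sfpq*, a core protein of paraspeckles, was at -0.50 ± 0.054 and -0.70 ± 0.054, called at both days. *Nono*, of the same protein family as *Sfpq* and named after its value was seen, was at -0.01 ± 0.045 at 6 days and was not called.

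The genes of the speckles where *Malat1* gathers were also listed. Of 16 nuclear speckle and SR proteins none was called at 3 days and 1 at 6 days, *Srsf3*, an SR splicing factor, at -0.56 ± 0.065 (edgeR, adjusted p = 0.000204), with medians of -0.08 and -0.15. Of 10 other long noncoding RNAs 5 could be tested. *Pvt1* was called higher at 3 days (0.55 ± 0.079, adjusted p = 0.00272, named after its value was seen), and none was called at 6 days.

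**Figure D4:**
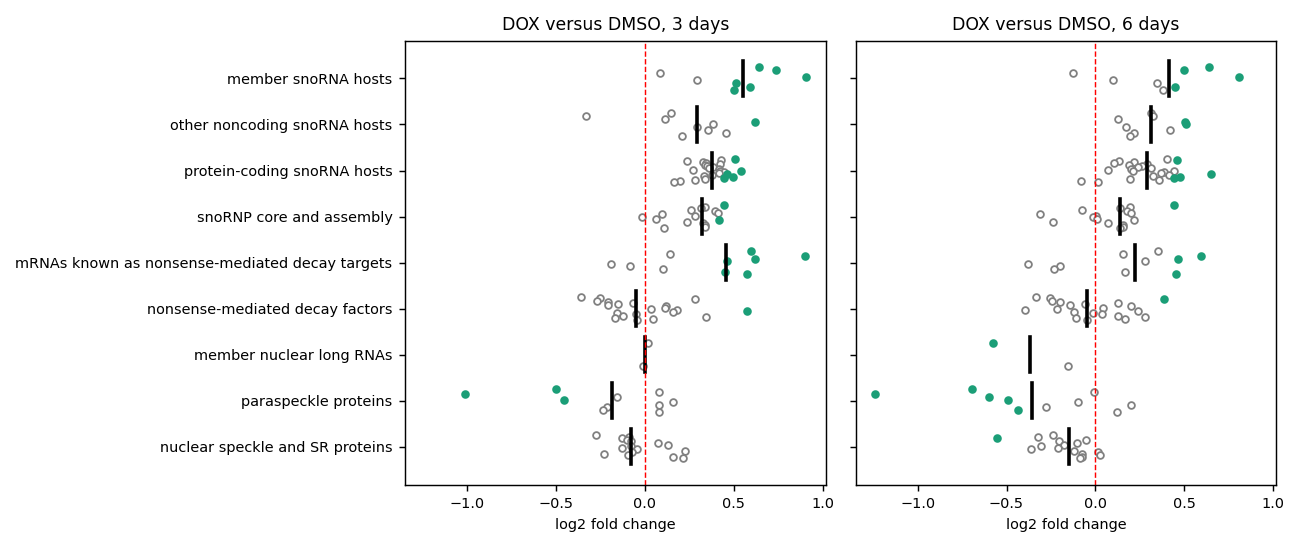
Log2 fold change of DOX against DMSO (x axis) of each tested gene of the members and of the lists (rows) at 3 days (left) and 6 days (right). The median of a list is a black bar, and genes called by edgeR are filled points. The dashed line is the median of all tested genes (0.0031 at 3 days and -0.00064 at 6 days). The medians of the member hosts, at 0.55 and 0.42, lie to the right of 0, and the paraspeckle proteins, at -0.19 and -0.36, lie to the left.

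The ratio of an estimated count to a TPM value gives the mean effective length of the transcripts assigned to a gene, up to a factor per library. A shift between short and long isoforms can move it, but so can the library. In DMSO at 3 days replicate 1 had the shortest value of its group for every member. In DMSO at 6 days replicate 1 had the longest for every member but *Neat1*. The scaling did not remove this spread, which limits the test below, and its cause was not tested. *Neat1* had 3474 to 3591 bases in the 16 libraries, near its annotated short form of 3004 bases and far from the 20771 bases of the long form. Since the long form is known to lack a poly(A) tail, oligo-dT selection may recover it unevenly. The length of *Neat1* therefore does not tell which form the cells made more of. *Gas5* averaged 360 to 370 bases in the 4 groups, where its annotated transcripts run from 346 to 2556 bases. Some hosts lay below their shortest annotated transcript in every group. *Snhg8* averaged 262 to 271 bases (shortest transcript 448) and *Snhg6* 273 to 282 (400). *Snhg3* averaged 250 to 260 (332) and *Epb41l4aos* 230 to 241 (303). For these hosts the ratio cannot be read as the length of a transcript. For *Gas5* and the other members it is an effective length too. A value within the annotated span therefore does not name a transcript. *Malat1* varied most, from 4245 to 6185 bases, within its annotated 485 to 6983, and both ends were DMSO libraries of 6 days. No member was called for a change in this length between DOX and DMSO by limma at either day, where 0.0352% and 0.15% of 11366 genes with 2 or more transcripts were called. The smallest p among the members was that of *Snhg5* at 3 days (-0.04 ± 0.021 in log2, unadjusted 0.0697, adjusted p = 0.768).

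**Figure D5:**
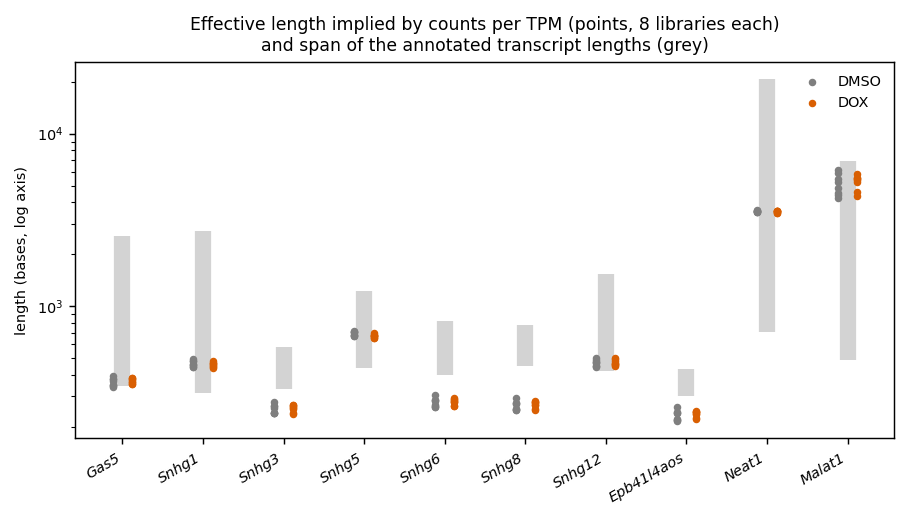
Effective length implied by counts per TPM (y axis, log scale, bases) for each member (x axis), with grey points for the 8 DMSO and orange points for the 8 DOX libraries and a grey bar over the span of annotated transcript lengths. The ranges of DMSO and DOX points overlap for each member, and *Neat1* sits at 3474 to 3591 bases, near the middle of its span on this axis. The points of *Snhg3*, *Snhg6*, *Snhg8* and *Epb41l4aos* lie below their grey bars.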

How the data were processed

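Poly(A) RNA of 16 mIMCD3 libraries was sequenced as paired reads with a directional kit. The authors aligned the reads to GRCm38.p6 with STAR and quantified transcripts with salmon (version 0.14.10 in the submitters' processing notes); the strand setting is not given in the sources used here. They deposited estimated counts for 54393 genes, which are not normalized, and TPM values for 53354 genes. No column lacked a sample.

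Estimated counts were rounded. The filter asked for a CPM of 1 or more in 4 or more libraries and left 13234 genes. After TMM scaling, edgeR 4.0.16 (R 4.3.3) fitted group means to all libraries together by its robust quasi-likelihood method. Pairs of groups were tested with glmTreat beyond 1.2-fold, and the difference between days with glmQLFTest, both two-sided, with Benjamini-Hochberg adjustment over all tested genes. Log2 CPM used a prior count of 2. Counts per TPM, scaled to the library median, were tested with limma 3.58.1. The calculations were tested on simulated data. Positions and overlaps come from GENCODE M21, promoters from RefSeq.

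The members and the gene lists were chosen with earlier results of these data known. Genes named are the 10 members, the called genes of each list with the largest changes at 6 days (up to 3 in each direction), and the 5 genes most like *Gas5*, *Neat1* and *Malat1*. *Nono*, *Nufip1*, *Magohb*, *Pvt1*, *Atf4* and *Cdh1* were added after their values were seen. The results of 1 gene are left out by name. The alternatives were other scaling, filters, thresholds and tests, DESeq2 1.42.0, a length and GC correction, the replicate number as a block, and leaving out each library. Replicate numbers recur in the 4 groups, the labels do not say what equal numbers share, and the main fit did not pair the samples by them.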

Additional observations from a re-analysis of the deposited data

Results flagged for a closer look

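In 40 groups of 4 libraries (10 members in 4 groups), 4 had an extreme library whose gap to its neighbour took more of the group's range than Dixon's 95% limit allows, where chance gives about 1 group in 20. The 40 groups share the same 16 libraries and the hosts moved together. The groups are thus not independent, and the number flagged cannot be weighed against that rate. For 3 of the flagged groups the library was the same, DOX at 3 days with replicate number 1. It was lowest for *Gas5*, at 928 CPM, with a ratio of 0.87, for *Snhg8*, at 124 CPM, with 0.926, and for *Snhg12*, at 87.0 CPM, with 0.888. *Snhg3* in DMSO at 3 days was highest in replicate 1, at 18.8 CPM, with a ratio of 0.847.

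The effect of DOX on *Neat1* was called as different between the days in the test without a fold threshold. The interaction of 6 against 3 days was -0.60 in log2 (edgeR's quasi-likelihood test, adjusted p = 0.0146). It was called in 25 of 28 alternatives, with each of the 16 libraries left out among them. The call was lost with a 1.2-fold threshold (edgeR's glmTreat, adjusted p = 0.156). It was also lost by limma on log2(TPM + 1) (adjusted p = 0.181) and on log2(TPM + 0.1) (adjusted p = 0.185).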

How the results depend on the processing

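Of the member calls, *Snhg5* was kept at both days and *Snhg1* at 3 days under all 21 alternatives, *Gas5* under 18 at 3 days and 20 at 6 days, and *Neat1* at 6 days under 18. The others held less often: *Snhg12* under 18 at 3 days and 14 at 6 days, *Snhg1* at 6 days under 16, *Snhg8* at 3 days under 13, *Epb41l4aos* at 3 days under 11 and *Neat1* between the DOX groups under 12. DESeq2 ended the 3-day calls of *Snhg8* (adjusted p = 0.104) and *Epb41l4aos* (0.194) and the 6-day calls of *Snhg1* (0.0897) and *Snhg12* (0.212), and that of *Neat1* between the DOX groups (0.0649). The length and GC correction ended that of *Epb41l4aos* at 3 days (0.0712) and added *Snhg8* at 6 days (0.0389, but 0.0520 with the replicate block as well). Counts of called genes moved as follows. Without a fold threshold they were 5982 at 3 days, 6702 at 6 days, 62 between the DMSO groups and 4000 between the DOX groups (7 members). Limma on log2(TPM + 1) gave 701, 1307, 86 between the DOX groups and 659 for the interaction, and a pseudocount of 0.1 gave 909, 1527, 111 and 631; both called 2 members at 3 days, 2 at 6 days, 0 between the DOX groups and 0 for the interaction. Centring each library's log2 TPM on its median, an alternative chosen after seeing the data, gave 574 (304 higher and 270 lower), 1393, 71 and 1217, with 2, 1, 0 and 1 members. The median of all genes on log2(TPM + 1) was 0.16 between the DOX groups and 0.10 for the interaction, where higher and lower calls were 45 to 41 against 181 to 341 by edgeR (11 to 60 when centred), and when centred 347 to 870 for the interaction against 984 to 1268. DESeq2 called 1019 at 3 days and 243 between the DOX groups, with 3 members at 6 days and 0 between the DOX groups. No filter on low counts gave 6 genes between the DMSO groups, and higher and lower calls of 276 to 335 between the DOX groups and 1240 to 997 for the interaction. A threshold of 1.2 on the interaction left 183 genes and 0 members (*Neat1*, adjusted p = 0.156).

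Leaving out 1 library gave 325 to 909 genes and 0 to 3 members between the DOX groups, 3 to 5 members at 6 days and 1369 to 3787 genes for the interaction; 909 genes, 3 members and 3787 genes came without DOX 3 days replicate 1, 1369 without DMSO 3 days replicate 4, and the 3 members at 6 days without DOX 6 days replicate 1. Values near 0 changed sign: *Snhg3* at 3 days was -0.023 with the length and GC correction, -0.024 with that and the replicate block, and -0.12 on log2(TPM + 1) and log2(TPM + 0.1), and at 6 days 0.0063 and, with the block, 0.0073; *Neat1* at 3 days was -0.17 on both TPM scales and -0.044 to 0.091 with 1 library left out; *Malat1* at 3 days was -0.10 to 0.072 with 1 library left out. By CPM per kilobase of the median annotated length, which is only 606 bases for *Malat1*, *Malat1* ranked 1, *Gas5* 2 and *Neat1* 4. The causes were not tested.

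Equally numbered libraries mostly did not deviate in the same direction (correlations -0.43 to 0.18, at most 1 of 4 pairs over 0.1 in a comparison). This check cannot exclude a shared culture or batch, since it looked only for positive correlations. In every group, replicate 1 had the lowest correlation with its group mean. The values were 0.9896 (DMSO) and 0.9903 (DOX) at 3 days, and 0.9849 (DMSO) and 0.9918 (DOX) at 6 days. That DMSO library of 6 days also had the lowest mitochondrial share of its group (1.29%) and the highest *Neat1* (886 CPM). Why replicate 1 was the least typical library was not tested. With the replicate block 1570, 2767, 419 and 1768 genes were called at 3 days, at 6 days, between the DOX groups and for the interaction, and no member call changed. At 168 to 323 counts a library, *Snhg3* was the member with the least depth.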
